A study of Homo sapiens with 6 samples.

Results

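Neighbouring protein-coding genes can share a stretch of regulatory DNA. Here 275 peaks of the transcription factors PLAG1-S and USF2 lay within 1 kb of an end, a start or a 3′ end, of each of 2 or more such genes. Whether these peaks served more than 1 gene was not tested. They were chosen by measured values, namely their presence in all 4 deposited peak lists, and by their position: a clone 4 PLAG1-S peak that shared at least 1 bp with a clone 5 PLAG1-S peak and came within 100 bp of a USF2 peak found in both clones. The 275 peaks were 13.2% (95% Wilson interval 11.8 to 14.8, counting error only) of the 2078 co-bound peaks on chromosomes 1 to 22 and X. The other co-bound peaks had 1 such gene (980 peaks) or none (823 peaks).

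Chromatin immunoprecipitation with sequencing was performed in K562, a human chronic myelogenous leukemia cell line, with an anti-FLAG and an anti-USF2 antibody in each of 2 clones, named 4 and 5. All cells carried a bidirectional lentiviral vector that overexpresses both USF2 and FLAG-tagged PLAG1-S, a short isoform of PLAG1, so that no library came from cells with USF2 at its own level and none from cells without the FLAG-tagged protein. Each condition rests on these 2 clones with 1 library per antibody each, and the inputs of both clones were merged as the common control of all lists. The authors deposited 37574 and 29889 PLAG1-S peaks for clones 4 and 5 and 9338 and 4369 USF2 peaks, each with a fold, which is the enrichment at the summit over the local background. Gene expression was not measured here, so binding between a pair of genes says nothing about which of them was transcribed.

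PLAG1 is a zinc finger transcription factor that binds G-rich DNA with a bipartite motif and is known from salivary gland tumours. USF2 is a basic helix-loop-helix leucine zipper factor that is expressed in most tissues and binds the palindromic E-box CACGTG, which occurs in the promoters of many lysosomal and metabolic genes. Genes that start close together on opposite strands, called divergent or head-to-head genes, are common in the human genome and are enriched for DNA repair and housekeeping functions.

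The DNA at the summits carried E-boxes, and 8 stretches are shown because they belong to members named by fixed rules (the strongest peaks, the leading peak of each gene list and those with the most genes) and their promoter windows hold an E-box. They were thus picked for the E-box and are an illustration only. Each is the plus strand of hg38, 5′ to 3′, from the RefSeq promoter table, within 50 bp of the clone 4 USF2 summit and trimmed to the bases that lie outside every annotated gene, with CACGTG in capitals.
ATP6V0C/AMDHD2, chr16:2520273-2520370: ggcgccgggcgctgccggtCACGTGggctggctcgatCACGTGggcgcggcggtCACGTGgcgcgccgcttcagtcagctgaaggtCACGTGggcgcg
GAA/CCDC40, chr17:80101488-80101580: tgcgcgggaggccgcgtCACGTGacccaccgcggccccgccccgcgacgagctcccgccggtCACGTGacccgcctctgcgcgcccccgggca
SPATA25/NEURL2/CTSA, chr20:45891257-45891334: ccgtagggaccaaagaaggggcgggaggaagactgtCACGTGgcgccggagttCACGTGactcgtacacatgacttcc
APEX1/OSGEP, chr14:20455122-20455222: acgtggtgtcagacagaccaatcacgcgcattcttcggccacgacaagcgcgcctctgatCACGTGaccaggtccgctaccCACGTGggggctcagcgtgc
NTHL1/TSC2, chr16:2047835-2047930: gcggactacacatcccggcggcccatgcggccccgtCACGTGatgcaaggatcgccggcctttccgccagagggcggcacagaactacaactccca
EFTUD2/DNAAF19, chr17:44899638-44899728: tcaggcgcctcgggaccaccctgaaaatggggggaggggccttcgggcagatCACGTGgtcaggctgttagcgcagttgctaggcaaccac
ULK3/SCAMP2, chr15:74843272-74843372: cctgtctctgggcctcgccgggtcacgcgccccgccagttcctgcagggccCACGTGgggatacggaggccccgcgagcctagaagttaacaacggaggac
CHTF8/DERPC/UTP4, chr16:69132589-69132648: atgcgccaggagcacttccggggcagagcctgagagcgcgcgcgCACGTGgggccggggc

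The ATP6V0C/AMDHD2 stretch held 4 E-boxes, each on 1 strand or the other preceded by T, with 18, 17 and 32 bp between their centres. In the SPATA25/NEURL2/CTSA stretch the 2 E-boxes were 17 bp apart, at APEX1/OSGEP 21 bp and at GAA/CCDC40 45 bp. A single E-box was centred at -6.5 bp from the clone 4 USF2 summit at NTHL1/TSC2, at 4.5 bp at EFTUD2/DNAAF19, at 3.5 bp at ULK3/SCAMP2 and at 2.5 bp at CHTF8/DERPC/UTP4. The stretches at ITGA7/BLOC1S1 and RPUSD4/FAM118B lay wholly or mostly inside annotated genes and are not shown.

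To ask whether co-binding went with places where genes adjoin, the share of peaks at 2 or more genes was compared between peaks with and without USF2. Of the PLAG1-S peaks found in both clones, 19252 had no USF2 peak found in both. They are called PLAG1-S peaks without USF2 here and include peaks with USF2 in only 1 clone. Of the 19252, 1320 lay at 2 or more coding genes, a background of 6.86% (interval 6.51 to 7.22), against 13.2% of the co-bound peaks. Of 2358 USF2 peaks found in both clones, 279 did (11.8%, interval 10.6 to 13.2). The gap was smaller once only peaks near genes were counted. Among peaks within 1 kb of at least 1 coding gene the share with a second gene was 21.9% (interval 19.7 to 24.3) of 1255 co-bound peaks and 17.3% (interval 16.5 to 18.2) of 7633 PLAG1-S peaks without USF2. Co-bound peaks were also wider, with clone 4 PLAG1-S medians from 524 to 733 bp by gene number, against 270 bp over the whole deposited list. A wider interval reaches a second gene more easily. By summit in place of the interval the shares were 11.7% of co-bound peaks and 6.07% of those without USF2. The shares among peaks near genes were not recomputed by summit. Peaks are not replicates of a condition, so these intervals were not turned into a test.

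The 275 peaks lay at 548 of the 19974 coding genes in the annotation (2.74%), while 7.41% of all coding genes had an end within 1 kb of any co-bound peak. Exactly 2 genes were found at 259 of the peaks and 3 at the other 16, while 16 genes lay at 2 peaks each and the readthrough gene KYAT1-SPOUT1 at 3. The interval itself held ends of 2 or more genes in 141 peaks (51.3%), of exactly 1 gene in 96 (34.9%) and of none in 38 (13.8%). The gap from the interval to the second gene was 0 bp at the median, 360.5 bp at the upper quartile and 999 bp at most. Genes overlapped each other at 77 peaks (28.0%). Some of the second genes were annotation variants, as 16 of the 275 peaks fell below 2 genes once 6 readthrough genes and 15 genes with only a LOC name were left out. Chromosome 19, which is dense in genes, held 34 of the peaks (12.4%, interval 8.98 to 16.8), 73 of the 980 co-bound peaks at 1 gene (7.45%) and 1451 of all coding genes (7.26%).

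The limit of 1 kb cut through a continuous range. Just outside it, with the second gene at 1001 bp, were the peak at ALDH4A1/IFFO2, with PLAG1-S folds of 26.2 and 18.6 and USF2 folds of 14.1 and 8.40, and the peak at the histone genes H2BC21/H2AC20, with PLAG1-S folds of 4.29 and 3.78 and USF2 folds of 9.80 and 7.36.

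Most of these peaks sat at gene starts. The strand of at least 2 of the genes was known for 210 peaks, and 113 of them (53.8%, interval 47.1 to 60.4) lay at divergent starts, where the genes point away from each other. This was near the background, because 50.6% of 952 PLAG1-S peaks without USF2 at 2 or more such genes had the same arrangement. In 48 peaks (22.9%, interval 17.7 to 29.0) the start of a gene followed the 3′ end of a gene on the same strand, a tandem arrangement, against 22.1% of the PLAG1-S peaks without USF2. In 31 peaks (14.8%) the opposed starts overlapped, so that each gene began inside the other, against 15.5%. A further 10 peaks were at starts on 1 strand, 2 at a start beside an opposed 3′ end and 6 at 3′ ends only, by the genes whose strand was known. The arrangement of the genes thus differed little between peaks with and without USF2.

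The start was the first one that RefSeq lists for the gene where this lay within 1 kb of the peak, and otherwise the 5′ end of the gene interval. At the 113 divergent pairs the starts were 221 bp apart at the median, with quartiles of 133 and 343 bp, and 75 pairs (66.4%, interval 57.3 to 74.4) were under 300 bp apart. The PLAG1-S summit fell between the starts in 74 pairs (65.5%, interval 56.3 to 73.6) in clone 4 and in 75 in clone 5. The USF2 summit fell there in 69 pairs (61.1%) in clone 4 and in 70 in clone 5. In the remaining pairs the summit lay to 1 side of both starts. In 101 of the pairs both starts were the first listed ones, with a median gap of 236 bp (quartiles 145 and 370 bp), and the clone 4 PLAG1-S summit fell between them in 68 (67.3%). The median distance from the summit to the nearer start was 53 and 54 bp for PLAG1-S in clones 4 and 5 and 53 and 55 bp for USF2. The plot of summits at divergent gene starts shows them side by side.

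**Figure D1:**
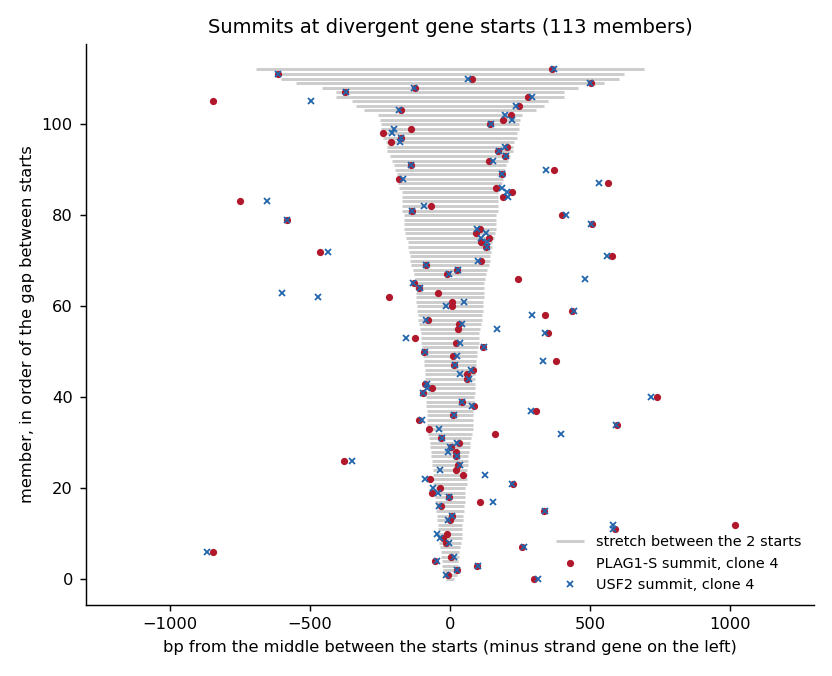
Position of the clone 4 PLAG1-S summit (red points) and USF2 summit (blue crosses), in bp from the middle between the starts, at the 113 members with divergent gene starts, ordered by the gap between the starts (grey bars). In 74 members the PLAG1-S summit and in 69 the USF2 summit fell on the grey bar.

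In most tandem pairs the summits lay nearer the start of the downstream gene than the 3′ end of the upstream one. The PLAG1-S summit of clone 4 was nearer the start in 43 of 48 pairs (89.6%, interval 77.8 to 95.5), at a median of 103 bp from the start and 537.5 bp from the 3′ end. The USF2 summit of clone 4 was nearer the start in the same number of pairs, 43 of 48, at medians of 109.5 and 571 bp. Among the peaks with at least 2 genes of known strand, 6 had only 3′ ends of such genes. These were the peaks of PODNL1/CC2D1A, STAT3/STAT5A, HRC/PPFIA3, UFSP1/ACHE/SRRT, RNF26/C1QTNF5/MFRP and DNASE1L1/RPL10. Peaks with fewer genes of known strand were not sorted by arrangement. The strand of UFSP1, whose end was the nearest to the summit at its peak, was not known. The 6 were chosen for mention after their values were seen. The peak between STAT3 and STAT5A, which encode signal transducers of cytokine receptors and end beside each other, had PLAG1-S folds of 28.4 and 22.6. Over these 6 peaks the PLAG1-S fold had medians of 16.3 in clone 4 and 12.1 in clone 5 and the USF2 fold had medians of 5.88 and 4.93.

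The PLAG1-S and USF2 signals had their summits close together in most of these peaks, whose intervals the rule required to come within 100 bp. Their summits were 12 bp apart at the median in clone 4 (quartiles 5 and 28.5 bp) and 15 bp in clone 5 (quartiles 5 and 39 bp), and within 50 bp of each other in 235 (85.5%) and 215 (78.2%) of the 275 peaks. The summits of 1 factor in the 2 clones were as far apart, 12 bp for PLAG1-S and 15 bp for USF2 at the median. Co-bound peaks at 1 gene had median distances of 14 bp in clone 4 and 16.5 bp in clone 5, and those at no gene 17 and 22 bp. Whether each factor touched the DNA itself at these places was not tested.

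The folds were set beside those of the other co-bound peaks within each library, since the rule fixed the lists but not the folds. In clone 4 the median PLAG1-S fold was 21.9 (quartiles 15.3 and 29.3) at 2 or more genes, 20.7 (14.2 and 28.1) at 1 gene and 16.4 (11.0 and 22.5) at none. In clone 5 it was 17.0 (quartiles 12.0 and 24.9), 16.5 (11.0 and 23.4) and 12.2 (7.89 and 17.2). Peaks at 2 or more genes and at 1 gene therefore had nearly the same PLAG1-S folds, and both had higher medians than peaks away from genes in each clone. The median USF2 fold in clone 4 was 9.73 (quartiles 6.31 and 14.0) at 2 or more genes, 8.37 (5.91 and 12.8) at 1 gene and 6.36 (4.73 and 9.02) at none. In clone 5 it was 7.02 (quartiles 4.98 and 10.9), 6.18 (4.73 and 9.60) and 5.16 (4.14 and 6.90). The order of the medians was the same in the 4 libraries, and the quartile ranges overlapped in all of them.

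**Figure D2:**
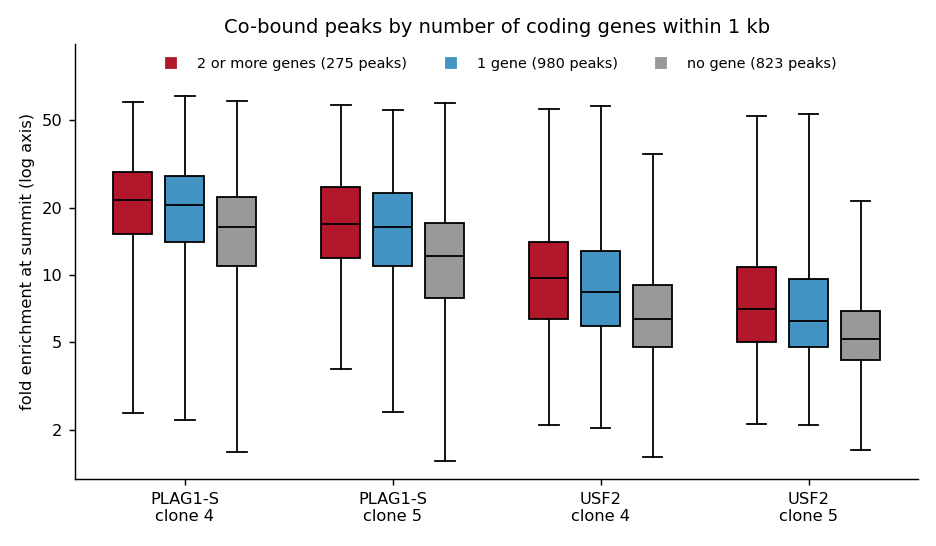
Fold enrichment at the summit (log axis) in each of the 4 libraries for co-bound peaks with 2 or more (275 peaks), 1 (980 peaks) or no (823 peaks) coding gene within 1 kb. Boxes span the quartiles, lines inside mark medians and whiskers reach the lowest and highest value. The red and blue boxes nearly coincide and the grey boxes lie lower, with overlap.

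A larger share of the 275 peaks was among the strong peaks of the USF2 lists. In the clone 4 USF2 list 168 (61.1%, interval 55.2 to 66.7) were in the top 10% by fold, against 49.7% of co-bound peaks at 1 gene and 30.1% of those at none. In clone 5 the shares were 32.7% (interval 27.5 to 38.5), 27.0% and 10.1%. In the PLAG1-S lists 85.5% and 82.9% of the 275 peaks were in the top 10% in clones 4 and 5, against 81.9% and 78.5% at 1 gene. The -log10 q was at least 10 in all 4 lists for 170 peaks (61.8%). The intervals were wide at a median of 733 bp in clone 4 for PLAG1-S, against 718.5 bp at 1 gene and 524 bp at none, and a wide interval reaches the limit of 1 kb to a second gene more easily.

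Across the 275 peaks the order of the folds was much the same in both clones, with a Spearman correlation of 0.946 for PLAG1-S and 0.920 for USF2. The folds of the 2 factors also went together, at 0.853 in clone 4 and 0.801 in clone 5. The points share libraries, the merged input and the local background, so these correlations are given as a description only. The plot of PLAG1-S against USF2 folds shows this relation in each clone.

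**Figure D3:**
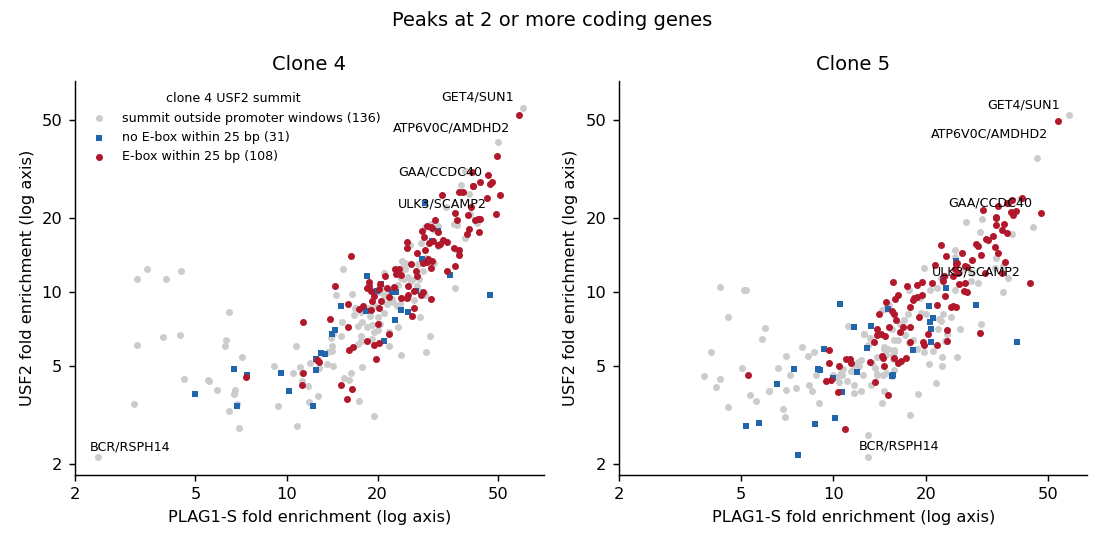
PLAG1-S against USF2 fold enrichment (both log axes) for the 275 members in clone 4 (left) and clone 5 (right). Colour marks whether the clone 4 USF2 summit had an E-box within 25 bp (red, 108 members), had none (blue squares, 31) or lay outside the promoter windows (grey, 136). The red points reach the top right and the blue squares lie mostly lower.

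The strongest peaks had high folds for both factors in both clones. The largest PLAG1-S folds were at GET4/SUN1 (chr7:875892-877105), 60.3 in clone 4 and 58.6 in clone 5, with USF2 folds of 56.2 and 52.2. GET4 belongs to the complex that targets tail-anchored proteins to the endoplasmic reticulum, and SUN1, 958 bp from the interval, spans the inner nuclear membrane. The peak at ATP6V0C/AMDHD2 (chr16:2519964-2521140) was the second by PLAG1-S fold, with 58.9 and 53.7, and had USF2 folds of 52.2 and 49.4. ATP6V0C encodes the proton-conducting ring subunit of the vacuolar ATPase that acidifies lysosomes, and AMDHD2 is a deacetylase of N-acetylglucosamine metabolism. By fold, GET4/SUN1 ranked 5 and 2 among all peaks of the PLAG1-S lists of clones 4 and 5 and 2 in both USF2 lists. For PLAG1-S the ATP6V0C/AMDHD2 peak came at rank 6 in clone 4 and rank 5 in clone 5, whereas its USF2 ranks were 4 and 3, so that both peaks were within the 6 highest folds of every list.

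A further 3 of the 6 peaks with the highest PLAG1-S fold are described here, with folds near 50 for PLAG1-S in clone 4. At ITGA7/BLOC1S1 (chr12:55715728-55716457) the PLAG1-S folds were 50.6 and 35.9 and the USF2 folds 24.7 and 18.8. ITGA7 is a laminin receptor subunit and BLOC1S1 a subunit of complexes that position lysosomes and related organelles. At ATG3/SLC35A5 (chr3:112561520-112562252), where the starts overlap, the PLAG1-S folds were 49.5 and 41.1 and the USF2 folds 35.8 and 24.1. ATG3 is the E2-like enzyme that attaches ATG8 proteins to lipid during autophagy, and SLC35A5 is a nucleotide sugar transporter family member. At ULK3/SCAMP2 (chr15:74842761-74843731) the PLAG1-S folds were 49.1 and 43.7, and the USF2 folds of 20.6 and 10.9 were less than those of the other peaks in this group. ULK3 is a serine/threonine kinase and SCAMP2 a carrier protein of recycling membranes. The maps of these 5 members show that all 4 intervals overlapped at each.

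**Figure D4:**
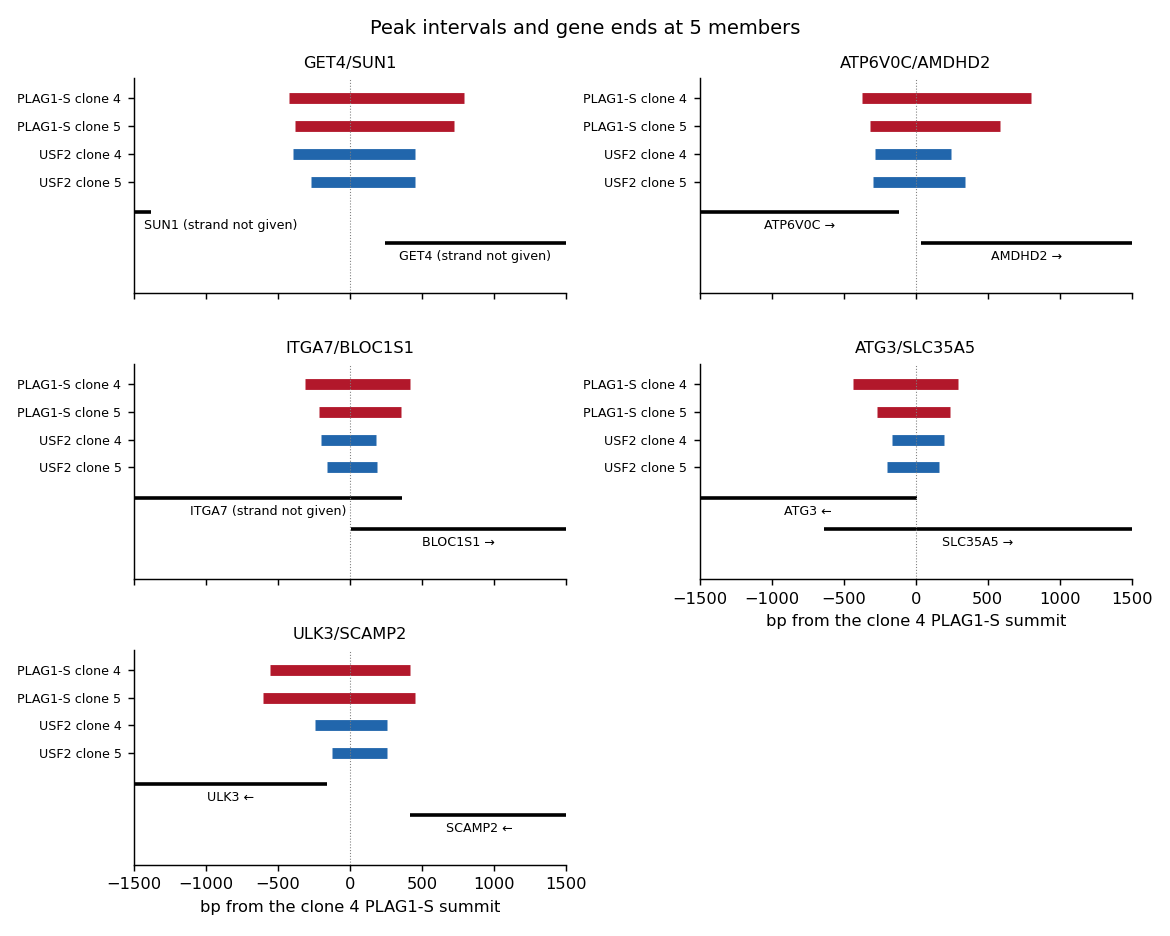
Intervals of the PLAG1-S (red) and USF2 (blue) peaks of both clones and the genes (black lines, arrows in the direction of transcription where given) at 5 of the 6 members with the highest clone 4 PLAG1-S fold, in bp from the clone 4 PLAG1-S summit (dotted line). The 4 intervals overlap in each map, and the gene lines run off the axis at 1500 bp.

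By USF2 fold of clone 4, HSDL1/DNAAF1 and RPUSD4/FAM118B joined the leading group. The peak at HSDL1/DNAAF1 (chr16:84144859-84145564) had PLAG1-S folds of 38.9 and 40.6 and USF2 folds of 31.1 and 23.8. DNAAF1 is needed to assemble the dynein arms of cilia. The peak at RPUSD4/FAM118B (chr11:126211399-126212062), between starts 132 bp apart, had PLAG1-S folds of 41.0 and 34.3 and USF2 folds of 30.8 and 22.3. RPUSD4 is a pseudouridine synthase of mitochondrial RNA.

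At the other end, the lowest USF2 fold of clone 5 was 2.13, at BCR/RSPH14 (chr22:23179525-23179937). Its USF2 fold in clone 4 was 2.12, and its PLAG1-S fold was 2.39 in clone 4 but 13.0 in clone 5. The PLAG1-S peak was 413 bp wide in clone 4 and 2905 bp in clone 5, and in clone 5 the summits of the 2 factors were 667 bp apart, so that the clone 5 fold belongs to another place in the wider interval. The local background in clone 4 was 24.1 fragments, which was above 10 in 7 of the 268 members for which it could be recovered from fold and p-value. K562 cells carry the BCR-ABL1 fusion in many copies. The part of the background in this peak's values was not tested.

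The 16 peaks at 3 genes had lower medians, with quartile ranges that overlapped those at 2 genes in every library. They had median PLAG1-S folds of 14.6 in clone 4 and 11.5 in clone 5 and median USF2 folds of 6.32 and 5.03, against 22.3, 17.5, 9.76 and 7.04 in the same order at 2 genes. They ranged in clone 4 PLAG1-S fold from 40.5 at TIMM13/LMNB2/TMPRSS9 down to 3.14 at ENDOG/SPOUT1/KYAT1-SPOUT1. TIMM13 is a chaperone of mitochondrial import and LMNB2 a nuclear lamin. The peak at SPATA25/NEURL2/CTSA (chr20:45890931-45891625) had PLAG1-S folds of 28.1 and 21.4 and USF2 folds of 17.6 and 12.9, and CTSA is the lysosomal protective protein cathepsin A. The clone 4 PLAG1-S fold was 27.1 at AK6/TAF9/RAD17 and 26.1 at SLC6A16/TEAD2/CD37. RAD17 loads the checkpoint clamp on damaged DNA and TEAD2 is the DNA-binding partner of YAP. The peak at CHTF8/DERPC/UTP4 (chr16:69132004-69132952) had PLAG1-S folds of 11.3 and 10.9 and USF2 folds of 4.65 and 2.76. Others were at TMEM276/KIFC2/TMEM276-ZFTRAF1, NDUFA7/RPS28/KANK3, FMC1/LUC7L2/FMC1-LUC7L2, JMJD8/WDR24/STUB1, UFSP1/ACHE/SRRT, RNF26/C1QTNF5/MFRP, SPOUT1/KYAT1-SPOUT1/ENDOG, KYAT1/LRRC8A/KYAT1-SPOUT1 and EIF3G/PPAN-P2RY11/P2RY11. Several of these hold a readthrough gene beside its own parts. The neighbouring peaks at SPOUT1 and ENDOG matched the same clone 5 PLAG1-S peak and the same USF2 peaks, so that they are not independent, and 8 of the 275 peaks shared their clone 4 USF2 peak with another.

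E-boxes were frequent in the promoters at these peaks, though no more so than at co-bound peaks with 1 gene. A promoter window, from 250 bases before to 50 after the first listed start, was available for 461 of the 548 genes, and 194 of them (42.1%, interval 37.7 to 46.6) held CACGTG, against a background of 8.87% in all 15812 windows of coding genes. The share was 49.2% of 762 genes at co-bound peaks with 1 gene and 8.35% of 1640 genes at PLAG1-S peaks without USF2 at 2 or more genes. Among the 361 genes whose start, and not only an end, lay within 1 kb of the member it was 50.1%. The USF2 part of the rule chose the peaks, and USF2 is known to bind this sequence. A G-rich motif of the PLAG1 kind (GGGGC, then 6 to 8 bases of any kind, then GGG, on either strand) was in 162 windows (35.1%, interval 30.9 to 39.6), against a background of 29.6% of all windows. The share was 39.9% of the genes at co-bound peaks with 1 gene and 33.5% of those at PLAG1-S peaks without USF2 at 2 or more genes. It was 39.6% of those at any PLAG1-S peak without USF2. The share at the members was below the 39.9% and the 39.6% and slightly above the 33.5%, which lay within its interval.

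An E-box lay near the PLAG1-S summit about as often as near the USF2 summit. The summits of the 2 factors were 12 and 15 bp apart at the median in clones 4 and 5, and the rule chose the members for a USF2 peak. The shares at the 2 factors' summits are therefore not separate results, and the contrast with peaks without USF2 is bound up with that choice. For 143 of the 275 clone 4 PLAG1-S summits a promoter window covered the 25 bp to each side, and 110 of them (76.9%, interval 69.4 to 83.1) had an E-box centred within that distance. In clone 5 it was 111 of 141 (78.7%), and for USF2 it was 108 of 139 (77.7%) in clone 4 and 107 of 135 (79.3%) in clone 5. The shares in the 4 libraries differed by less than their intervals. Co-bound peaks at 1 gene had 78.6% at the clone 4 PLAG1-S summit, and PLAG1-S peaks without USF2 at 2 or more genes had 46 of 344 (13.4%, interval 10.2 to 17.4). The G-rich motif was within 25 bp of 14 of 143 clone 4 PLAG1-S summits (9.79%, interval 5.92 to 15.8), and of 32 of 344 (9.30%) where no USF2 peak was found in both clones. The plot of E-box distances shows how closely the E-boxes were centred on the summits.

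The bases beside the E-box were also counted. Of the 108 E-boxes nearest to a clone 4 USF2 summit, 91 (84.3%, interval 76.2 to 89.9) read TCACGTG on at least 1 strand and 34 (31.5%) read TCACGTGA, the same letters on both strands. Of all 1581 E-boxes in promoter windows of coding genes, 855 (54.1%, interval 51.6 to 56.5) and 247 (15.6%) did. Of the 885 among them in windows of genes at no co-bound peak, 325 (36.7%, interval 33.6 to 40.0) and 68 (7.68%) did. The 108 were chosen by their nearness to the summit, and E-boxes at co-bound peaks with 1 gene were not counted separately. The E-boxes of ULK3/SCAMP2 and CHTF8/DERPC/UTP4 printed above are among those without this T.

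Members with an E-box at the summit had higher median folds for both factors, with quartile ranges that overlapped those of members without one in each library. With an E-box within 25 bp of the clone 4 USF2 summit (108 members) the median PLAG1-S fold was 27.0 in clone 4 (quartiles 19.7 and 35.8) and 21.7 in clone 5 (15.7 and 30.0), against 18.5 (12.5 and 24.6) and 12.8 (9.17 and 20.7) without one (31 members). The median USF2 fold was 12.4 in clone 4 (quartiles 9.21 and 17.7) and 9.66 in clone 5 (6.50 and 14.0), against 8.31 (5.08 and 10.1) and 5.87 (4.50 and 7.70). The median distance between the summits of the 2 factors in clone 4 was 8 bp with an E-box and 29 bp without. Of 123 members with 50 bp to each side covered, 23 (18.7%) had 2 or more E-boxes there, with a median PLAG1-S fold of 36.5 and a median USF2 fold of 19.6 in clone 4. The 84 members with 1 had medians of 24.4 and 10.5, and the 16 with none had 20.3 and 8.84. In clone 5 the PLAG1-S medians were 33.8, 18.9 and 13.1 in the same order and the USF2 medians 16.2, 8.59 and 5.37, so that the order of the medians held in every library. The quartile ranges for 1 and for no E-box overlapped in every library, and those for 2 or more and for 1 overlapped for PLAG1-S but not for USF2. The 4 members with 3 or more E-boxes were ATP6V0C/AMDHD2, TMEM116/ERP29, APEX1/OSGEP and DVL2/PHF23, named after their values were seen.

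Genes of the lysosome stood at 11 of the 275 peaks. Of 75 lysosomal genes listed, 11 (14.7%) lay at a peak shared with another gene and 30 (40.0%) at any co-bound peak. The backgrounds were 2.74% and 7.41% of all coding genes. Among the 1481 coding genes at any co-bound peak, 548 (37.0%) were at a shared one. The 11 of 30 lysosomal genes were near that share. The peak at GAA/CCDC40 (chr17:80101105-80101933) had the highest folds of the 11 for PLAG1-S, 47.6 in clone 4 and 47.5 in clone 5, with USF2 folds of 27.9 and 20.8. GAA is the acid alpha-glucosidase that breaks down glycogen in lysosomes. PLD3, the lysosomal exonuclease gene next to C19orf47, had PLAG1-S folds of 43.7 and 31.8 and USF2 folds of 19.7 and 16.2. NEU1, the lysosomal sialidase gene next to SLC44A4, had PLAG1-S folds of 36.2 and 30.0 and USF2 folds of 12.7 and 6.82. Both CTSA and NEU1, whose products act in 1 complex, were thus at such peaks. Others of the list at these peaks were GNPTG, GALNS, CTNS, TPCN1, SGSH and GLA, and 7 of the 11 peaks were at divergent starts. Over the 11 peaks the PLAG1-S fold had medians of 28.6 in clone 4 and 25.1 in clone 5 and the USF2 fold 17.6 and 12.9, above the medians of all 275 peaks in each library.

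Related lists followed with smaller counts. Of 50 genes of the vacuolar ATPase and lysosomal mTORC1 signalling, 4 (8.00%) lay at the 275 peaks and 19 (38.0%) at any co-bound peak. The 4 of 19 were below the 37.0% of all coding genes at a co-bound peak that were at a shared one. The 4 were ATP6V0C, ATP6V1E1, TSC1 and TSC2. For ATP6V0C the 3′ end and not the start lay in the peak. TSC1 and TSC2 are subunits of the tuberous sclerosis complex, which restrains mTORC1. The peak at TSC1/GFI1B had PLAG1-S folds of 20.1 and 17.1 and USF2 folds of 7.92 and 6.66. Of 53 autophagy genes, 6 (11.3%) lay at the 275 peaks, namely ATG3, GABARAP, ATG9A, MAP1LC3B, SNAP29 and ATG4D, and 12 (22.6%) at any co-bound peak. The 6 of 12 were above the 37.0%, on small counts. The peak at ABCB6/ATG9A lay at the start of ABCB6 and the 3′ end of ATG9A. The strand of ATG4D was not known. At CTDNEP1/GABARAP the clone 4 PLAG1-S summit was 615 bp from the GABARAP start and 527 bp from the CTDNEP1 3′ end. Of 75 vesicle sorting genes, 6 (8.00%) lay at the 275 peaks, among them VPS35, a core subunit of the retromer, with PLAG1-S folds of 34.6 and 29.1 at VPS35/ORC6.

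DNA repair and checkpoint genes had the third highest share of the 8 lists, after the lysosomal and autophagy genes. Of 91 such genes, 10 (11.0%) lay at the 275 peaks and 14 (15.4%) at any co-bound peak, against backgrounds of 2.74% and 7.41% of all coding genes. Of all 1481 coding genes at a co-bound peak, 548 (37.0%, interval 34.6 to 39.5) were at one shared with a neighbour. The 10 repair and checkpoint genes at the 275 peaks were APEX1, PMS2, NTHL1, RAD17, FEN1, BRCA2, RAD50, RPA1, TDG and TIMELESS. In each case the peak was at the start of the repair gene. The peak at APEX1/OSGEP (chr14:20454815-20455524) had PLAG1-S folds of 36.5 and 29.2 and USF2 folds of 19.6 and 15.7. APEX1 is the main endonuclease at abasic sites, and OSGEP makes a modified base of transfer RNAs. At PMS2/AIMP2 the PLAG1-S folds were 36.1 and 35.6 and the USF2 folds 10.4 and 9.94, PMS2 being a mismatch repair protein. The peak at NTHL1/TSC2 (chr16:2047409-2048119), between starts 151 bp apart, was the only member with genes of 2 lists, with PLAG1-S folds of 28.5 and 26.8 and USF2 folds of 16.6 and 10.9. NTHL1 is a glycosylase of base excision repair.

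The other lists stood closer to the background of 2.74% at the 275 peaks. Of 76 genes of the mitochondrial respiratory chain, 4 (5.26%) lay at the 275 peaks, NDUFA7, ATP5PB, NDUFS1 and ATP5ME, all at divergent starts. The peak at NDUFA7/RPS28/KANK3 (chr19:8321266-8321759) led them with PLAG1-S folds of 20.9 and 15.6 and USF2 folds of 6.30 and 4.55. Of 67 genes of endoplasmic reticulum stress, chaperones and the GET pathway, 3 (4.48%) lay there, GET4, DNAJB9 and CALR. CALR counted by its 3′ end, 999 bp from the interval. Of 88 splicing genes, 2 (2.27%) lay at the 275 peaks, EFTUD2 and SRSF2. At any co-bound peak lay 7 (9.21%) of the respiratory chain genes, 13 (19.4%) of the endoplasmic reticulum and GET genes and 9 (10.2%) of the splicing genes. The background for this was 7.41% of all coding genes. The peak at EFTUD2/DNAAF19 (chr17:44899330-44899894) had PLAG1-S folds of 15.9 and 11.4 and USF2 folds of 7.22 and 5.14, EFTUD2 being a GTPase of the spliceosome. These lists were written with earlier results of these data known, and their counts describe them without a test.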

How the data were processed

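ChIP-seq peak lists of 2 factors in 2 clones of K562 cells were analysed. The submitters' processing notes name FastQC, cutadapt, HISAT2 2.0.4, SAMtools, MACS2, bedtools and HOMER and the build hg38 (GRCh38). Peaks were called by the authors in each immunoprecipitated library against the merged inputs. The deposited fold is a ratio, the enrichment at the summit over the local background. The authors also deposited a -log10 p and a -log10 q per peak (largest q 0.0099 for PLAG1-S, 0.0494 for USF2) and a score, which was 10 times the -log10 q rounded down in nearly all peaks. Because the inputs are shared, the lists are not independent in their background. Read depth per library is not in the lists, and fragments and local background at a summit were recovered from fold and p-value (tolerance 0.001 in -log10 p). A peak caller with a common threshold returns more peaks from a deeper or better enriched library, so levels were not compared between libraries.

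Members were found with Python 3.11.15, NumPy 2.4.6, pandas 2.3.3 and SciPy 1.17.1, as clone 4 PLAG1-S peaks that met the rule given in the report. Genes were the 19974 protein-coding genes of RefSeq GRCh38.p14, with strand and a promoter window of 300 bases for 15812 (the first one listed, since 4048 of them have several). E-box and G-rich matches were sought in those windows only, since no whole genome was used. The members and lists were chosen with earlier results of these data known. Genes were named by rule: the 6 highest folds of each factor in clone 4, members at 3 genes, members with genes of 2 lists, the leading member of each list, the lowest clone 5 USF2 fold and the peaks nearest the 1 kb limit. A few peaks and genes that these rules name are not reported here. Clone number pairs the PLAG1-S and USF2 libraries, which come from the same cells. With 2 libraries per factor no p-value is given, main shares carry 95% Wilson intervals and main medians quartiles, and intervals cover counting error only. Alternatives were other limits, clones and coordinates. Scripts were tested on simulated peaks and genes. The input libraries were not analysed here as they have no peak list.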

Additional observations from a re-analysis of the deposited data

How the results depend on the processing

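Of 97 values recomputed under alternative settings for 12 results, 47 stayed within the limits set for them (1.5 times for counts, the interval for shares, 1 SD between the clones for medians) and 50 did not. With a -log10 q of at least 10 there were 170 members at 345 genes, 16.5% of co-bound peaks, with the summit between the 2 ends in 61.2%, median folds (means over the clones, as reported 19.4 for PLAG1-S and 8.37 for USF2) of 24.9 and 11.0, a median summit distance of 9.25 bp against 13.5 bp, a median width of 744 bp against 714.5 bp and an E-box in 53.9% of promoters. Taking peaks of either clone gave 601 members, 9.40% and 1107 genes. From 1 clone alone the ranges were 307 to 550 members, 10.3% to 11.6%, 599 to 1040 genes, 44.0% to 51.1% with the summit between the ends, PLAG1-S folds of 14.0 to 15.6, USF2 folds of 5.37 to 6.27, summit distances of 17.0 to 24.0 bp, widths of 653 to 657 bp, E-boxes in 29.4% to 38.4%, G-rich motifs in 34.1% to 35.7%, divergent starts in 50.1% to 52.8% and 48 to 69 listed genes. The clone 4 lists alone gave the 550 members, 2 times the number found in both clones. The replicate block, with co-binding called within each clone and averaged, gave 428.5 members, 10.9% of co-bound peaks, 47.6% with the summit between the ends, folds of 14.8 and 5.82, a summit distance of 20.5 bp and a width of 655 bp.

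A limit of 500 bp to a gene end gave 10.7%, and 3 kb gave 422 members, 20.3%, 834 genes and 74 listed genes. With the summit in place of the interval the share was 11.7%, with genes of all types there were 587 members, 28.2% and 1232 genes, and with starts only, where the strand was given, 138 members, 6.64% and 276 genes. Leaving out readthrough and LOC genes, an alternative chosen after seeing the data, gave 259 members. Counting any listed promoter window of a gene, likewise chosen after seeing the data, gave an E-box in 47.7% of the genes and the G-rich motif in 41.4%, against 10.9% and 35.3% of all coding genes. An E-box was in 50.1% of promoters of genes with a start within 1 kb, the longer GTCACGTG in 28.9% against 3.44% of all promoters, and GGGGCC in 47.7% against 42.7%. PLAG1-S peaks without USF2 kept the lower share at 2 or more genes in the settings where it was recomputed, with 7.67% at a -log10 q of at least 10, 4.67% at 500 bp, 12.6% at 3 kb, 6.07% by summit, and 5.02% and 6.09% in the lists of clones 4 and 5 alone. The clone 5 USF2 list was the shortest of the 4. Read depth per library is not in the lists. The fragments at the summits of the members, where they could be recovered, had medians of 111.5 and 83 for PLAG1-S in clones 4 and 5. For USF2 they were 48 and 34. The cause of the shifts was not tested.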

Other observations

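Genes that do not code for protein also ended at some of the members. Of the 275 members, 41 (14.9%, 95% Wilson interval 11.2 to 19.6) lay within 1 kb of an end of such a gene, most often a long noncoding RNA (25 members). Of the 980 co-bound peaks at 1 coding gene, 277 (28.3%, interval 25.5 to 31.2) did. A microRNA gene was found at 9 members, a small nucleolar RNA gene at 2 and a transfer RNA gene at 1. The microRNA genes inside a member's interval included MIR484 at NDE1/MARF1, MIR611 at TMEM258/FEN1, MIR632 at C17orf75/ZNF207 and MIR636 at SRSF2/MFSD11. These were chosen for mention after they were seen.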
